A study of Mus musculus with 4 samples.

Results

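The 9 genes described here encode the death receptors Fas, Tnfrsf10b and Tnfrsf1a, the ligands Fasl and Tnfsf10, the adaptor Fadd, the initiator caspases Casp8 and Casp9, and the apoptosome scaffold Apaf1. They were chosen by name as the extrinsic apoptosis and apoptosome genes, and all 9 were found among the 56691 genes of the table and passed the filter on low counts. RNA-seq was performed on 4 sarcomas of mice heterozygous for a p53 mutation (W/+ mice, genotype p53R282W/+ in the labels, on a C57BL/6N background), 2 labelled ATO and 2 labelled PBS. R282W is the human numbering, and by the paper the mutated mouse residue is the one that corresponds to it. ATO-1 and ATO-2 came from mice given arsenic trioxide (ATO), a compound tested for restoring mutant p53, in their drinking water until death. The paper's results name natural death, and its methods also describe euthanasia of mice that were moribund or had large or ulcerated tumors. PBS-1 and PBS-2 came from control mice, which carried the same mutation and received no ATO. All the mice keep 1 wild-type p53 allele in the germline, and the labels give neither the type of each sarcoma nor the age at sampling. By the paper, mice with sarcomas lived longer with ATO, so age may differ between the groups and cannot be told apart from treatment. The labels do not say that each sarcoma came from a separate mouse, so p-values measure only the spread between these samples. For all 4 samples the labels also give a growth protocol for cultured cells, which the methods do not describe for sarcomas.

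Cell death by the extrinsic route starts when a ligand of the TNF family binds a receptor that carries a death domain. The receptor recruits the adaptor Fadd, which gathers Casp8, and active Casp8 starts the caspase cascade. In the intrinsic route, cytochrome c from mitochondria joins Apaf1 into the apoptosome, which activates Casp9. Fas, Tnfrsf10b and Apaf1 are known targets of wild-type p53, and Fasl and Tnfsf10 are made mainly by T cells, NK cells and other immune cells. Their comparison between the groups asks whether the genes that start apoptosis had other mRNA levels in the ATO sarcomas.

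The sequence upstream of 4 of the genes is shown because both ATO sarcomas lay above both PBS sarcomas in Fas, Fasl and Tnfsf10, and below them in Apaf1. Casp8 also lay below, and its window is not printed because its RefSeq start lies inside the gene as GENCODE M21 annotates it. The sequences are from RefSeq's annotation of GRCm38.p6, which held a promoter window for 8 of the 9 genes and none for Tnfrsf10b. They are written 5′ to 3′ on the strand of the gene and stop before the start in RefSeq or in GENCODE M21, whichever comes first. The Fas stretch is chr19:34290409-34290658 on the plus strand, with a GAS motif (TTCNNNGAA, bound by STAT factors) and a GC box (GGGCGG) in capitals. The Fasl stretch is chr1:161788496-161788745 on the minus strand, with a p53 half-site, a CCAAT box on each strand that overlap in 1 run, and a GC box in capitals. The Tnfsf10 stretch is chr3:27316827-27317027 on the plus strand, with no match. The Apaf1 stretch is chr10:91082771-91082993 on the minus strand, with 2 GC boxes in capitals.
Fas: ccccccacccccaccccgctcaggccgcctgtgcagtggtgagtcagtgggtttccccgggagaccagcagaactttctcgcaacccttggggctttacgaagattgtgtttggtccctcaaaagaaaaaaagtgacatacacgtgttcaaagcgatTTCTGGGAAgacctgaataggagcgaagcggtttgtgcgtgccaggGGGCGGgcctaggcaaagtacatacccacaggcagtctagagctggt
Fasl: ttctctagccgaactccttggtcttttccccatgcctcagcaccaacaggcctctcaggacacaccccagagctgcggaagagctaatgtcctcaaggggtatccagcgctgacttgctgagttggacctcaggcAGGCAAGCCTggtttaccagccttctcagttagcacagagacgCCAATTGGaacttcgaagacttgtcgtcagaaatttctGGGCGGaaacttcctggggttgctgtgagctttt
Tnfsf10: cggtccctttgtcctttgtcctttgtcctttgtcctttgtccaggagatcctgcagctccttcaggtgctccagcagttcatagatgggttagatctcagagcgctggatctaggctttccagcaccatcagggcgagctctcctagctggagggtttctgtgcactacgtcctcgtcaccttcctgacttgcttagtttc
Apaf1: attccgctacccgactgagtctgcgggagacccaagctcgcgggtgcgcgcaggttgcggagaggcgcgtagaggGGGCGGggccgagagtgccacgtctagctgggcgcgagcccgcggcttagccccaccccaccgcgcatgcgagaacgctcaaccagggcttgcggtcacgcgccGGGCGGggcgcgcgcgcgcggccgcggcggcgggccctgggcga

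Motifs were searched on both strands in windows from 250 bases before to 50 bases after the RefSeq start. The p53 half-site consensus, a pair of which makes a full p53 response element, matched in 1 of the 8 genes, Fasl, and in 8.36% of all 32851 windows. The match in Fasl lay between positions -115 and -106, counted from the RefSeq start. The GAS motif matched in 2 of the 8 genes, Fas (between -93 and -85) and Tnfrsf1a, and in 8.30% of all windows. The GC box matched in 5 of the 8, against 35.7% of all windows, and the CCAAT box (CCAAT) in 3, against 37.4%. The interferon response core (GAAA, any 2 bases, GAAA), the NF-kB site and the TATA box (TATAAA) matched in 0 of the 8, against 3.44%, 4.51% and 13.6% of all windows. These are matches of letters in 1 short window per gene, and no binding was measured.

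The sarcomas had between 15259695 (ATO-2) and 18134000 (ATO-1) counts in all, and 3 counts, the upper limit at 95% confidence (one-sided) for a count of 0, were worth 0.165 to 0.197 CPM (the share of the counted reads, scaled up). In ATO-2, 14.7% of the counts were of mitochondrial genes, and at most 2.59% were in the other sarcomas. Trp53, the mutated gene, had an FPKM of 43.6 in PBS-1, 44.6 in PBS-2, 13.7 in ATO-1 and 11.6 in ATO-2, which does not show which allele was read. FPKM is the read count per length of exons and per library total, both scaled to fixed units. Mesenchymal markers, which sarcomas carry, were present in every sarcoma, with a summed FPKM over 6 genes of 3898 in PBS-1, 1384 in PBS-2, 3932 in ATO-1 and 835.0 in ATO-2. The summed FPKM of 4 epithelial markers was between 1.05 and 17.6. The sarcomas differed widely in the markers of other cell types, as the plot of marker sums shows. The paper lists angiosarcomas, soft sarcomas and osteosarcomas in W/+ mice. Whether these markers came from tumor cells or from other cells was not tested. The sum over 8 skeletal muscle genes was 7.46 in PBS-1, 122.2 in PBS-2, 14571 in ATO-1 and 985.2 in ATO-2. The sum over 5 adipocyte genes was 12.7 in PBS-1, 66.2 in PBS-2, 228.7 in ATO-1 and 1368 in ATO-2, and Lep was at 0 in both PBS sarcomas. The sum over 4 endothelial genes was 892.7 in PBS-2 and between 68.7 and 138.2 in the other 3. The sum over 4 neutrophil genes was 5808 in PBS-2, 138.8 in PBS-1, 1553 in ATO-1 and 873.3 in ATO-2. By fitted level all 8 muscle, 5 adipocyte and 4 epithelial genes were higher in ATO, as were 49.2% of all genes tested. All 4 endothelial and 4 neutrophil genes were lower, and 2 of the 6 mesenchymal genes were higher. By edgeR 0 of these genes passed an adjusted p of 0.05. An unadjusted p under 0.05 was found in 6 muscle and 5 adipocyte genes, against 8.51% of all genes tested. The part of these cells in the results below was not tested, and in bulk tissue fewer cells of a type and less RNA per cell cannot be told apart.

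**Figure D1:**
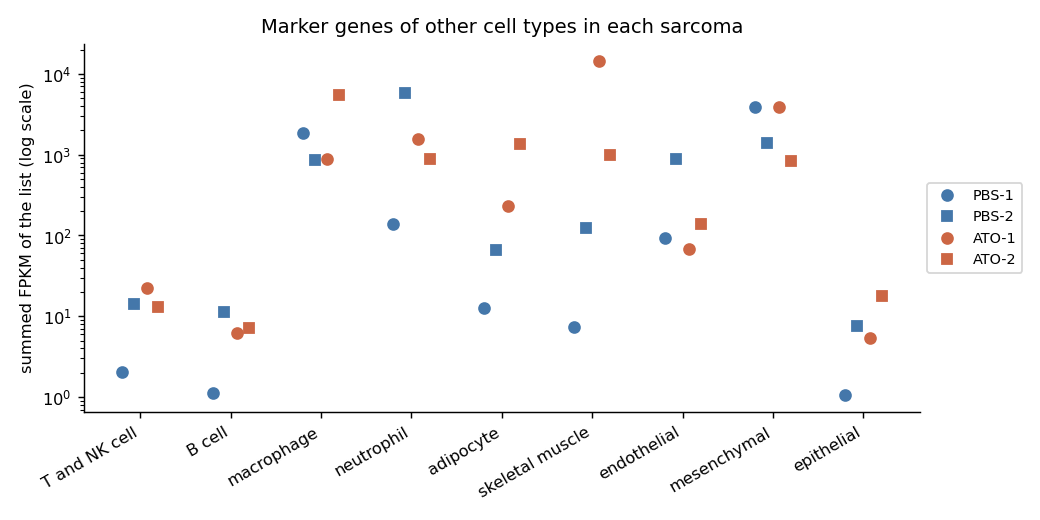
Summed FPKM (log scale) of fixed marker lists of 9 cell types in each sarcoma; circles are replicate 1, squares replicate 2, blue PBS and orange ATO. ATO-1 is highest for skeletal muscle (14571), ATO-2 for adipocyte (1368) and macrophage (5523) genes, and PBS-2 for endothelial (892.7) and neutrophil (5808) genes.

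In the comparison of ATO with PBS sarcomas, 4 of the 9 genes had a higher fitted level in ATO (Fas, Fasl, Tnfsf10 and Casp9) and 5 a lower one (Tnfrsf10b, Tnfrsf1a, Fadd, Casp8 and Apaf1). The median log2 fold change of the 9 was -0.03, against -0.02 over all 17188 genes tested, of which 49.2% were higher. By edgeR's quasi-likelihood test with Benjamini-Hochberg adjustment over all genes, 0 of the 9 passed an adjusted p of 0.05, and 0% of all genes did. At an unadjusted p under 0.05, 1 of the 9 (Fas) passed, against 8.51% of all genes. DESeq2 called 0 of the 9 and 4.13% of its genes. On CPM normalized with TMM factors, which adjust for differences in library composition, both ATO sarcomas lay above both PBS sarcomas in 3 genes (Fas, Fasl and Tnfsf10). That held for 19.7% of all genes. They lay below in 2 (Casp8 and Apaf1), against 20.2% of all genes. By FPKM the same 3 lay above, against 12.8% of all genes, and the same 2 below, against 29.8%. A permutation of 2 against 2 samples cannot give an exact p under 0.333, so no single gene was tested that way.

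**Figure D2:**
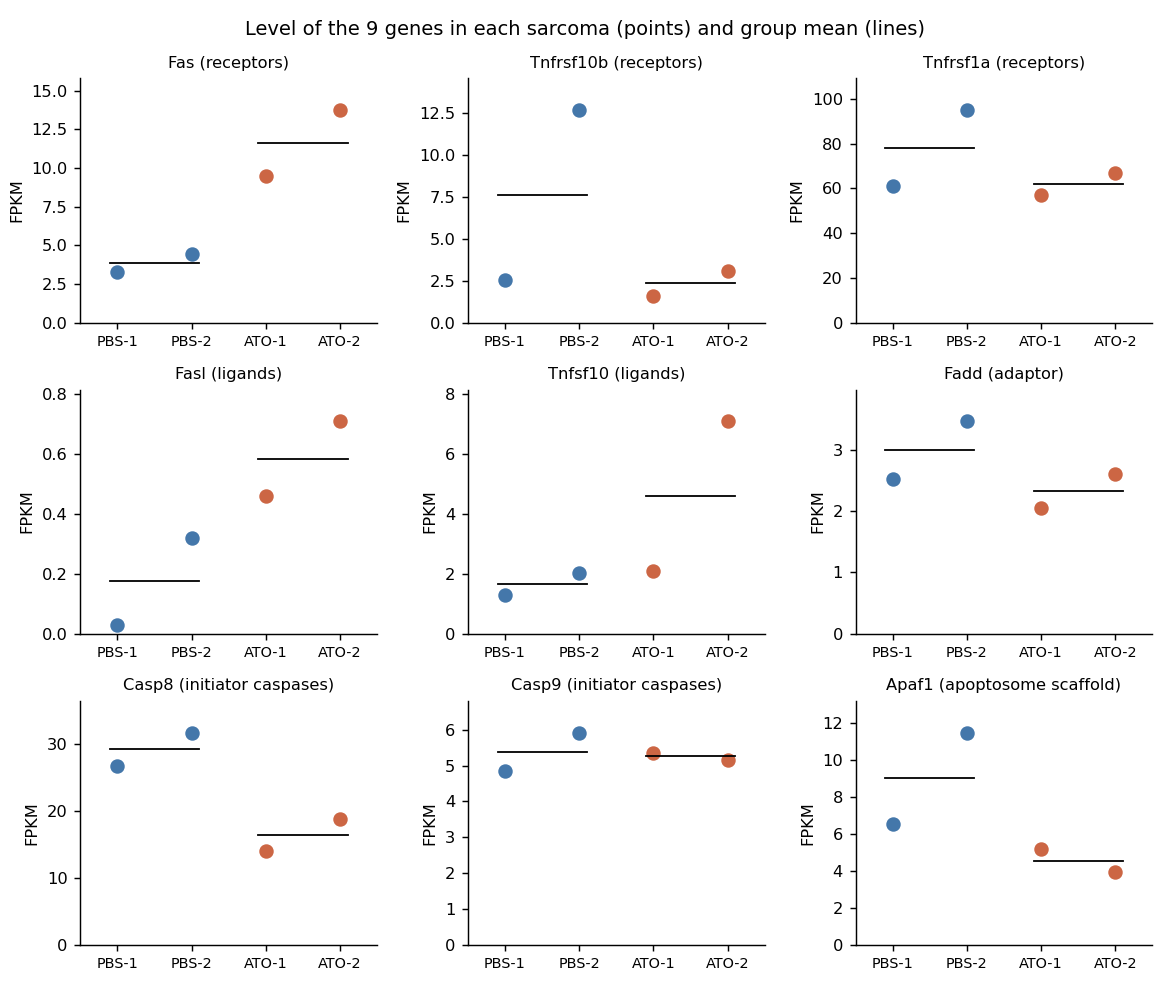
FPKM of the 9 genes in each sarcoma (points; blue PBS, orange ATO) with the mean of each group of 2 (lines), each axis starting at 0. The groups do not overlap for Fas, Fasl, Tnfsf10, Casp8 and Apaf1, and they overlap for Tnfrsf10b, Tnfrsf1a, Fadd and Casp9.

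The levels of the 9 genes, which can be compared by FPKM, spanned from Tnfrsf1a, with a mean of 70.0 ± 17.1 (SD, n = 4) over all sarcomas, to Fasl, with 0.380 ± 0.284 (SD, n = 4). Casp8 came after Tnfrsf1a with 22.8 ± 7.88 (SD, n = 4). Tnfrsf1a and Casp8 held the first and second rank in each sarcoma, and Fasl the last. The ranges of Tnfrsf1a, Casp8 and the third gene, Fas, did not overlap, though the lowest Casp8 value (14.0 in ATO-1) was close to the highest Fas value (13.7 in ATO-2). From Fas through Apaf1, Casp9, Tnfrsf10b and Tnfsf10 to Fadd, each range overlapped with the next, so the order of neighbours was not set beyond the spread. Further apart in this order, the lowest values of Apaf1 (3.93) and Casp9 (4.86) lay above the highest of Fadd (3.46). The ranges of Fadd and Fasl did not overlap. Within a sarcoma Fas ranked 3 in both ATO sarcomas, 5 in PBS-1 and 6 in PBS-2. Tnfsf10 ranked 6 in ATO-1 and 4 in ATO-2, and 8 in both PBS sarcomas.

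Among the 3 receptors, the groups did not overlap in Fas and overlapped in Tnfrsf10b and Tnfrsf1a. Fas (ENSMUSG00000024778, chromosome 19 of GRCm38, 34290666 to 34327772) encodes the receptor of Fas ligand. Its FPKM was 3.30 in PBS-1, 4.43 in PBS-2, 9.47 in ATO-1 and 13.7 in ATO-2. Both PBS sarcomas were low and both ATO sarcomas high, and each ATO sarcoma had between 2.14 and 4.16 times the FPKM of a PBS sarcoma. On TMM-normalized CPM this was between 2.35 and 5.53 times. The mean was 27.0 ± 10.7 TMM-normalized CPM (SD, n = 2) for ATO and 7.26 ± 1.42 (SD, n = 2) for PBS. Fitted by edgeR, this was 1.89 on the log2 scale (SE 0.53, adjusted p = 0.570), which did not pass the threshold. The smallest edgeR adjusted p of any gene tested was also 0.570. With each sarcoma left out it stayed between 1.43 and 2.24, and over all alternatives the adjusted p ranged from 0.102 to 0.864. Of all tested genes 91.7% had a lower log2 fold change. The 3 genes with a pattern over the 4 sarcomas most like that of Fas were Trdc, Abcd2 and Gmpr, with root mean square differences of 0.050, 0.058 and 0.099 on the centred log2 CPM scale. Trdc, a T cell receptor delta gene, had an FPKM of 0.070 in PBS-1, 0.120 in PBS-2, 0.410 in ATO-1 and 0.700 in ATO-2. The 0.5 added to CPM before taking logs shrinks differences at such low levels, so its closeness to Fas depends on that setting. The 3 were picked as the closest of 17188 genes on 4 values, so close matches come from the selection. A link to Fas was not tested.

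Tnfrsf10b (ENSMUSG00000022074, chromosome 14, 69767472 to 69784411) encodes the TRAIL death receptor of the mouse. Its FPKM was 2.56 in PBS-1, 12.7 in PBS-2, 1.60 in ATO-1 and 3.07 in ATO-2. PBS-2 stood apart, and the other 3 sarcomas overlapped. In edgeR the log2 fold change came to -1.38 (SE 0.92, adjusted p = 0.707), and without PBS-2 it was 0.18. PBS-2 also had the highest sums of endothelial (892.7) and neutrophil (5808) markers, whose part in the Tnfrsf10b level was not tested.

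Tnfrsf1a (ENSMUSG00000030341, chromosome 6, 125349362 to 125362484) encodes the main receptor of TNF, which can signal survival as well as death. Its FPKM was 60.9 in PBS-1, 94.9 in PBS-2, 57.2 in ATO-1 and 67.0 in ATO-2. The groups overlapped. The difference in edgeR was -0.03 on the log2 scale (SE 0.47, adjusted p = 0.992), and leaving out 1 sarcoma at a time moved it between -0.31 and 0.31. Within a sarcoma, the ratio of Fas to Tnfrsf1a by FPKM was 0.0542 in PBS-1, 0.0467 in PBS-2, 0.166 in ATO-1 and 0.205 in ATO-2. Its mean was 0.185 ± 0.0277 (SD, n = 2) for ATO and 0.0504 ± 0.00532 (SD, n = 2) for PBS. The ratio does not depend on how the libraries were scaled to each other.

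Both ligands had higher values in the ATO sarcomas, at low levels. Fasl (ENSMUSG00000000817, chromosome 1, 161780689 to 161788495), the ligand of Fas, had 1 count in PBS-1, 11 in PBS-2, 16 in ATO-1 and 21 in ATO-2. The FPKM was 0.030, 0.320, 0.460 and 0.710 in the same order. The exact Poisson interval at 95% was 0.158 to 0.565 FPKM in PBS-2 and 0.260 to 0.740 FPKM in ATO-1, so that these neighbours were not told apart at this depth. In PBS-1 the interval reached from 0.00075 to 0.165 FPKM, and in ATO-2 from 0.440 to 1.09 FPKM. On the log2 scale edgeR gave a difference of 2.04 (SE 1.20, adjusted p = 0.678). Without PBS-1 it was 1.19 and without PBS-2 it was 4.41. The ratio of Fas to Fasl by FPKM was 110 in PBS-1, 13.8 in PBS-2, 20.6 in ATO-1 and 19.3 in ATO-2. The groups overlapped, and the value in PBS-1 rests on 1 count of Fasl.

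T and NK cell markers, the genes of cells known to make Fasl, moved with it in part. The summed FPKM of the 13 markers was 2.06 in PBS-1, 14.2 in PBS-2, 22.4 in ATO-1 and 12.9 in ATO-2. PBS-1 was lowest in both Fasl and this sum, while PBS-2 and ATO-2 had like sums and Fasl values of 0.320 and 0.710. The markers Cd3g, Cd8b1 and Ncr1 were at 0 in PBS-1 and none was at 0 in the other sarcomas. Of the 11 markers tested, 8 had a higher fitted level in ATO, 0 passed the threshold in edgeR and 1 had an unadjusted p under 0.05, against 8.51% of all genes. Of 4 B cell markers 2 were higher and 2 lower, with summed FPKM between 1.13 in PBS-1 and 11.4 in PBS-2. The part of these cells in the Fasl level was not tested.

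Tnfsf10 (ENSMUSG00000039304, chromosome 3, 27317028 to 27342427) encodes TRAIL, the ligand of Tnfrsf10b. Its FPKM was 1.29 in PBS-1, 2.02 in PBS-2, 2.10 in ATO-1 and 7.08 in ATO-2. ATO-2 was high, and ATO-1 lay only just above PBS-2. The mean was 28.3 ± 24.4 TMM-normalized CPM (SD, n = 2) for ATO and 7.94 ± 2.38 (SD, n = 2) for PBS. By edgeR the log2 fold change was 1.83 (SE 0.82, adjusted p = 0.604), and without ATO-2 it was 0.48. ATO-2 also had the highest macrophage sum, with 5523 over 6 genes against 1841 in PBS-1, 865.5 in PBS-2 and 892.1 in ATO-1. Most of that sum was Lyz2, at an FPKM of 5115 in ATO-2. Adgre1, Cd68 and Itgam were also highest in ATO-2. Csf1r had an FPKM of 61.7 in ATO-2, below PBS-1 (76.2) and ATO-1 (76.1). Mrc1 had 32.4 in ATO-2, below PBS-1 (57.3) and ATO-1 (68.5). All 6 macrophage genes were fitted higher in ATO, and by edgeR 0 passed the threshold, also at an unadjusted p under 0.05. By TMM-normalized CPM both ATO sarcomas lay above both PBS sarcomas in 1 of the 6, against 19.7% of all genes. By FPKM they did in 0, against 12.8%. The part of macrophages in the Tnfsf10 level was not tested.

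Fas and Tnfsf10 are also known to respond to interferon. All 10 genes of a fixed interferon list had a higher fitted level in ATO (median log2 fold change 1.06), of which 0 passed the threshold in edgeR, 1 had an unadjusted p under 0.05 (8.51% of all genes did) and 3 lay above in both ATO sarcomas by TMM-normalized CPM (19.7% of all genes did). By FPKM 2 lay above, against 12.8% of all genes. Isg15, the highest in fold, had an FPKM of 11.5 in PBS-1, 23.4 in PBS-2, 105.2 in ATO-1 and 13.1 in ATO-2. Irf1, the lowest in fold, had 16.2, 24.9, 9.21 and 23.5 in the same order. The summed FPKM of the list was 79.3 in PBS-1, 108.4 in PBS-2, 225.4 in ATO-1 and 130.9 in ATO-2, and Isg15 made up 105.2 of the sum in ATO-1. The part of interferon in the levels of Fas and Tnfsf10 was not tested.

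**Figure D3:**
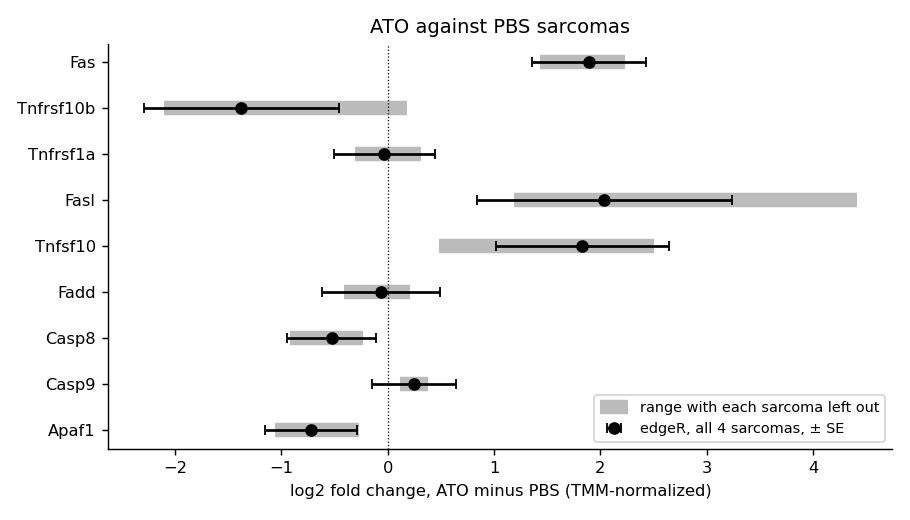
Log2 fold change of the 9 genes between ATO and PBS sarcomas in edgeR (points, with SE as bars) and its range with each sarcoma left out in turn (grey). Fas stays between 1.43 and 2.24, Casp8 and Apaf1 stay below 0, and the ranges of Tnfrsf10b, Tnfrsf1a and Fadd cross 0.

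The adaptor and the initiator caspase of the receptor complex were not higher in the ATO sarcomas. Fadd (ENSMUSG00000031077, chromosome 7, 144577318 to 144582463) had an FPKM of 2.52 in PBS-1, 3.46 in PBS-2, 2.05 in ATO-1 and 2.60 in ATO-2. The groups overlapped, and edgeR gave a difference of -0.06 on the log2 scale (SE 0.55, adjusted p = 0.982). Leaving out 1 sarcoma at a time moved it between -0.41 and 0.21, so its direction was not set. Casp8 (ENSMUSG00000026029, chromosome 1, 58795374 to 58847503) had an FPKM of 26.6 in PBS-1, 31.6 in PBS-2, 14.0 in ATO-1 and 18.7 in ATO-2. Both ATO sarcomas were below both PBS sarcomas, but on TMM-normalized CPM ATO-2 (66.3) lay close to PBS-1 (70.7). ATO-1 was lowest, with 40.4. The mean was 53.3 ± 18.3 TMM-normalized CPM (SD, n = 2) for ATO and 76.8 ± 8.62 (SD, n = 2) for PBS. In edgeR this was -0.53 on the log2 scale (SE 0.42, adjusted p = 0.754), and it stayed between -0.92 and -0.23 with each sarcoma left out.

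Casp8 was also low in ATO relative to its partners within the same sarcoma, which removes the scaling between libraries. Cflar, the Casp8 relative that blocks its activation, had an FPKM of 9.18 in PBS-1, 9.15 in PBS-2, 7.36 in ATO-1 and 10.5 in ATO-2. The ratio of Casp8 to Cflar was 2.90 in PBS-1, 3.46 in PBS-2, 1.91 in ATO-1 and 1.79 in ATO-2. The mean ratio was 1.85 ± 0.0830 (SD, n = 2) for ATO and 3.18 ± 0.396 (SD, n = 2) for PBS. The ratio of Casp8 to Fadd was 10.6 in PBS-1, 9.14 in PBS-2, 6.84 in ATO-1 and 7.20 in ATO-2. In both ratios the ATO sarcomas lay below the PBS sarcomas. Casp8 alone also lay below, so the ratios are not separate results. The pairs were chosen with earlier results of these data known, and no test was made.

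**Figure D4:**
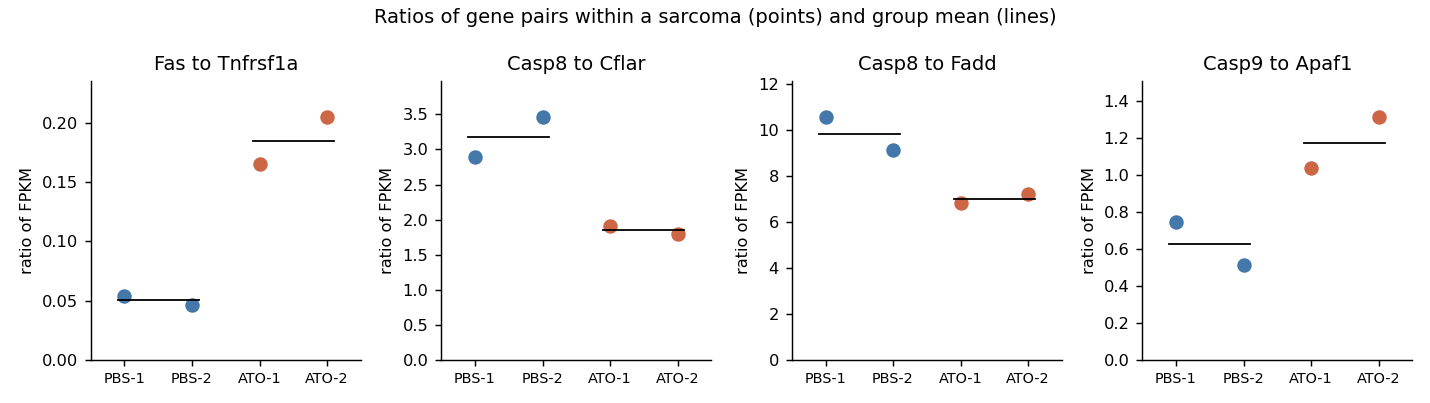
Ratio of the FPKM of 2 genes within each sarcoma (points; blue PBS, orange ATO) with group means (lines). Both ATO sarcomas lie above both PBS sarcomas for Fas to Tnfrsf1a and Casp9 to Apaf1, and below for Casp8 to Fadd and for Casp8 to Cflar (1.91 and 1.79 against 2.90 and 3.46). Only pairs whose groups do not overlap are plotted. Fas to Fasl, Casp9 to Xiap and Tnfrsf10b to Tnfrsf23 overlapped and are left out.

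Of the apoptosome genes, Apaf1 was lower in both ATO sarcomas and Casp9 was nearly level. Apaf1 (ENSMUSG00000019979, chromosome 10, 90989311 to 91082770) had an FPKM of 6.53 in PBS-1, 11.5 in PBS-2, 5.16 in ATO-1 and 3.93 in ATO-2. PBS-2 was highest, and the groups did not overlap. The mean was 44.9 ± 2.07 TMM-normalized CPM (SD, n = 2) for ATO and 74.0 ± 28.1 (SD, n = 2) for PBS. In edgeR this was -0.72 on the log2 scale (SE 0.43, adjusted p = 0.683), and without PBS-2 it was -0.27. Casp9 (ENSMUSG00000028914, chromosome 4, 141793612 to 141815976) had an FPKM of 4.86 in PBS-1, 5.92 in PBS-2, 5.36 in ATO-1 and 5.16 in ATO-2. It had the smallest spread of the 9 genes relative to its mean, 5.33 ± 0.447 (SD, n = 4). Its direction depended on the scale: edgeR with TMM factors gave 0.24 on the log2 scale (SE 0.39, adjusted p = 0.888), and limma on log2(FPKM + 1) gave -0.025, where the median of all genes was -0.18. The ratio of Casp9 to Apaf1 was 0.744 in PBS-1, 0.515 in PBS-2, 1.04 in ATO-1 and 1.31 in ATO-2, higher in both ATO sarcomas. The ratio of Casp9 to Xiap, its inhibitor, overlapped between the groups, with 0.552, 0.233, 0.428 and 0.507 in the same order.

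The other genes of these pathways were taken as 5 fixed lists with 45 genes, of which 42 were tested. In ATO 24 of the 42 were fitted higher and 18 lower. Their median log2 fold change was 0.24, and 0 passed an adjusted p of 0.05 by edgeR. At an unadjusted p under 0.05, 1 of the 42 passed, Mlkl, against 8.51% of all genes. On TMM-normalized CPM both ATO sarcomas lay above both PBS sarcomas in 7 (16.7%) and below in 5 (11.9%), against 19.7% and 20.2% of all genes. By FPKM these were 2 and 9, against 12.8% and 29.8% of all genes.

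**Figure D5:**
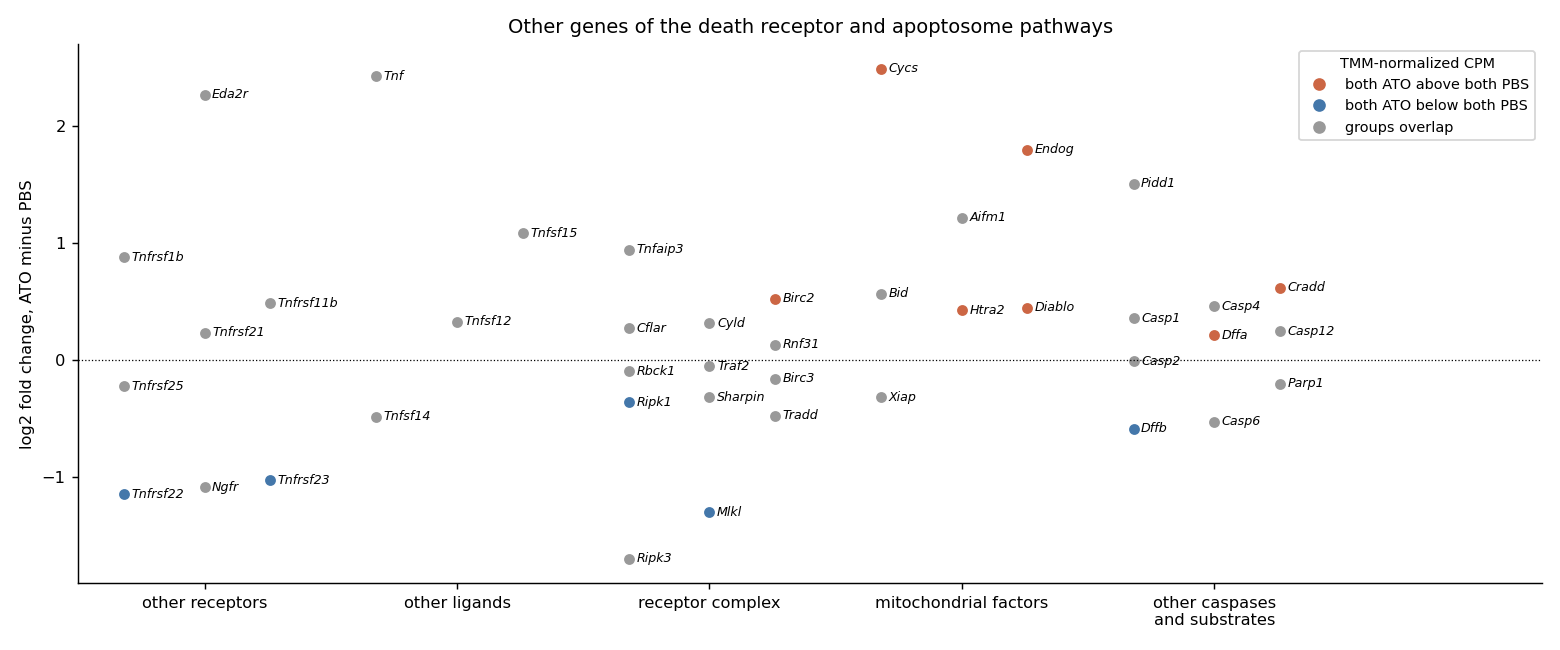
Log2 fold change (edgeR, ATO minus PBS) of the 42 tested genes of the 5 pathway lists, coloured by whether the TMM-normalized CPM of the 2 groups overlaps. Cycs lies highest and Ripk3 lowest, and most genes are grey, where the groups overlap.

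Of 8 further receptors tested, 4 were higher and 4 lower. Tnfrsf22 and Tnfrsf23, TRAIL receptors of the mouse that lack a death domain, were lower in both ATO sarcomas. Tnfrsf23 had an FPKM of 13.1 in PBS-1, 14.8 in PBS-2, 4.76 in ATO-1 and 6.30 in ATO-2 (log2 fold change -1.03, SE 0.43, edgeR adjusted p = 0.597). Tnfrsf22 had 3.19 in PBS-1, 6.82 in PBS-2, 1.37 in ATO-1 and 2.24 in ATO-2 (log2 fold change -1.15, SE 0.66, edgeR adjusted p = 0.672). The pair are close paralogs, and how reads that match both were counted is not given in the sources used here, so each count is uncertain. The ratio of Tnfrsf10b to Tnfrsf23 was 0.195 in PBS-1, 0.860 in PBS-2, 0.336 in ATO-1 and 0.487 in ATO-2, so that the groups overlapped. Eda2r, a receptor known as a p53 target, had an FPKM of 10.1 in ATO-1 and 0.560 in ATO-2, with 0.350 in PBS-1 and 2.11 in PBS-2. Its log2 fold change of 2.27 (edgeR adjusted p = 0.704) rested on ATO-1 and was -0.72 without it. Edar had too few counts to be tested.

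Of 4 further ligands tested, 3 were higher and 1 lower, and in each of them the groups overlapped. Tnf had an FPKM of 0.660 in PBS-1, 3.26 in PBS-2, 0.740 in ATO-1 and 15.2 in ATO-2. Its log2 fold change of 2.43 (edgeR adjusted p = 0.711) was -1.26 without ATO-2. Tnfsf14, a ligand of immune cells, was lowest in fold and had 0.680 in PBS-1, 8.41 in PBS-2, 1.43 in ATO-1 and 3.65 in ATO-2. Tnfsf15 had 0 counts in ATO-1, and Lta had too few counts to be tested.

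Of 13 genes of the receptor complex, 5 were higher and 8 lower. Ripk1, the kinase of the TNF receptor complex, had an FPKM of 10.1 in PBS-1, 10.4 in PBS-2, 6.50 in ATO-1 and 6.59 in ATO-2. The groups did not overlap (log2 fold change -0.36, SE 0.36, edgeR adjusted p = 0.802). Tradd, which links Tnfrsf1a to Ripk1, had 5.86 in PBS-1, 13.7 in PBS-2, 4.37 in ATO-1 and 6.88 in ATO-2. Ripk3 and Mlkl carry out necroptosis, the death route that Casp8 blocks. Ripk3, the lowest of the list in fold, had an FPKM of 14.0 in PBS-1, 59.5 in PBS-2, 5.03 in ATO-1 and 12.6 in ATO-2, and its log2 fold change of -1.71 (edgeR adjusted p = 0.658) was -0.33 without PBS-2. Mlkl, named after its values were seen, had 15.1 in PBS-1, 23.5 in PBS-2, 6.11 in ATO-1 and 6.66 in ATO-2. Both ATO sarcomas were low in Mlkl, and edgeR put the difference at -1.31 on the log2 scale (SE 0.46, adjusted p = 0.570), which stayed between -1.58 and -0.97 with each sarcoma left out. Tnfaip3, an inhibitor of NF-kB signalling, was the highest in fold and had 3.14 in PBS-1, 5.93 in PBS-2, 2.79 in ATO-1 and 10.7 in ATO-2.

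Of the 7 mitochondrial factors, 6 were fitted higher in ATO and 1 (Xiap) lower. Cycs, which encodes cytochrome c, had an FPKM of 14.0 in PBS-1, 15.4 in PBS-2, 18.4 in ATO-1 and 108.9 in ATO-2. ATO-2 stood far above the other 3. The edgeR difference of 2.50 on the log2 scale (SE 1.00, adjusted p = 0.592) was 0.46 without ATO-2, the sarcoma with 14.7% of its counts in mitochondrial genes and the highest adipocyte sum. Their part in the Cycs level was not tested. Cycs has pseudogene copies in the genome that can share its reads. Xiap had 8.80 in PBS-1, 25.4 in PBS-2, 12.5 in ATO-1 and 10.2 in ATO-2. Both ATO sarcomas lay above both PBS sarcomas in 4 of the 7 genes by TMM-normalized CPM, against 19.7% of all genes, and in 1 by FPKM, against 12.8%.

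Of 10 further caspases and substrates tested, 6 were higher and 4 lower. Dffb, the nuclease that cuts DNA in apoptosis, was the lowest in fold and had an FPKM of 5.14 in PBS-1, 6.44 in PBS-2, 4.51 in ATO-1 and 2.05 in ATO-2. Both ATO sarcomas were below both PBS sarcomas, and edgeR put the difference at -0.59 on the log2 scale (SE 0.55, adjusted p = 0.794). Pidd1, a p53 target that activates Casp2, was the highest in fold and had 1.87 in PBS-1, 1.54 in PBS-2, 7.76 in ATO-1 and 0.910 in ATO-2, and its log2 fold change of 1.51 (edgeR adjusted p = 0.701) was -0.50 without ATO-1. Casp14, a caspase of the epidermis, had 0 counts in all 4 sarcomas.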

How the data were processed

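RNA-seq of 4 sarcomas of W/+ mice (2 ATO, 2 PBS, grouped by the labels) was analysed. The authors trimmed reads with cutadapt 1.9.1 after FastQC 0.10.1, aligned them with HISAT2 2.0.1 and deposited raw counts per gene, made with HTSeq. The authors also deposited FPKM, which equals the count divided by exonic length and total count to within 0.005. Strand and multi-mapping settings are not given in the sources used here. At most 19 counts lay in a gene overlapping one of the 9 genes. The sources name GRCm38, but only 1472 of 52073 shared genes (2.83%) had the position of GENCODE M21, so positions were taken from M21 by identifier.

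Counts were tested in edgeR 4.0.16 (R 4.3.3; filterByExpr, TMM, quasi-likelihood F-test, Benjamini-Hochberg, threshold 0.05) over 17188 genes with at least 99.49% of each sarcoma's counts. SE is the log2 fold change divided by the root of F. TMM factors ranged from 0.822 to 1.11, and the common biological coefficient of variation was 62.5%. The script was tested on simulated counts, with its pass mark set on counts that had less spread than these sarcomas. That does not show what the test can find in these data. Alternatives were DESeq2 1.42.0, its size factors, no filter, no mitochondrial genes, a replicate block, limma 3.58.1 on log2 FPKM with a pseudocount of 1 or 0.1, and each sarcoma left out. FPKM was compared between genes and is also given for each sarcoma, without TMM factors. The main fits between sarcomas used TMM factors. Relative to the other sarcomas, ATO-2 (TMM factor 0.822) therefore reads lower by FPKM than by TMM-normalized CPM. Likeness to Fas used log2(CPM + 0.5). Tables, motifs and plots were made in Python 3.11.15. The genes, lists and pairs were chosen with earlier results of these data known. Named were the 9 genes, fixed partners (Cflar, Ripk1, Tradd, Xiap, Cycs, Tnfrsf22, Tnfrsf23 and Tnf) and the highest and lowest in fold of each pathway list and of the interferon list. Some items of the lists are not reported here. Intervals and limits cover counting error only.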

Additional observations from a re-analysis of the deposited data

How the results depend on the processing

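No filter on low counts gave 541 genes past the threshold (454 higher, 87 lower) and DESeq2 gave 754 (595 higher, 159 lower), against 0 in edgeR and in the other 9 alternatives. In both, 0 of the 9 genes passed. The cause was not tested. With a sarcoma left out, 1 group holds a lone sarcoma, which is assumed to vary like the pair.

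Of the 9 genes, 4 were higher in ATO, and between 4 and 7 with each sarcoma left out (7 without PBS-2). The direction was kept in 92 of 99 comparisons of the 9 genes over these alternatives, which refit the same sarcomas and are not independent. It turned for Tnfrsf10b without PBS-2 (0.18), for Tnfrsf1a without ATO-1 (0.19) and without PBS-2 (0.31), for Fadd without ATO-1 (0.21) and without PBS-2 (0.17), and for Casp9 in limma on log2 FPKM with a pseudocount of 1 (-0.025) or 0.1 (-0.028). Lowest and highest values with a sarcoma left out were -2.11 and 0.18 for Tnfrsf10b, -0.31 and 0.31 for Tnfrsf1a, and -0.41 and 0.21 for Fadd. These limma fits moved the median of all genes from -0.016 to -0.18 and -0.27.

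The number of genes whose groups did not overlap was 5 by TMM-normalized CPM, by FPKM and by CPM without mitochondrial genes. With each sarcoma left out, chosen after seeing the data, it was 7, when at least 33.2% of all genes lay above and 34.5% below. Both groups use the numbers 1 and 2, which no source ties to a pairing of sarcomas, and the deviations of same-numbered sarcomas correlated at -0.021. With the replicate block 0 genes passed (1165 at an unadjusted p under 0.05, against 1463 without it), and the log2 fold change of Fas was 1.85.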
